A study of Homo sapiens with 8 samples.

Results

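The genes described here are 50 genes of the kinetochore, the spindle checkpoint and the exit from mitosis. They were chosen by name, from a list proposed with earlier results of these data known, and not by a measured value in the present analysis. A member was represented by the probe sets annotated to it alone, under its current or an earlier symbol (KNL1 as CASC5, CENPU as MLF1IP, SGO1 and SGO2 as SGOL1 and SGOL2). All 50 had such a probe set, 93 in all, and the brightest stood for the gene. All 50 passed the filter on dim probe sets and were tested among 14731 genes, of 19775 genes with a probe set. Expression was measured on 8 Affymetrix arrays in HTETOP cells, a human line made from HT1080 fibrosarcoma cells in which the gene of topoisomerase II alpha, TOP2A, is under tetracycline control. The dexrazoxane group (3 arrays, 100 µM for 24 h) was set against its own vehicle group (3 arrays), and the doxycycline group (1 array, 1 µg/ml for 24 h) against its own vehicle group (1 array). Doxycycline switches TOP2A off in this line, and dexrazoxane is a catalytic inhibitor of topoisomerase II. All groups share the engineered TOP2A control, and RNA of 3 passages was pooled for each array (passages 15, 16 and 17 for the doxycycline pair). Nothing in the labels says that the numbered arrays were separate cultures, and the p-values then cover only array-to-array spread, possibly technical.

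The kinetochore is the protein assembly on the centromere that grips spindle microtubules. Its inner layer sits on nucleosomes that carry the histone variant CENP-A, and its outer layer, built around the NDC80 complex, binds the microtubule. Kinetochores without a proper attachment feed the spindle checkpoint, which holds back the anaphase-promoting complex (APC/C) and its activator CDC20. Once the checkpoint is satisfied, the APC/C marks securin and cyclin B for destruction, separase cuts cohesin, and the cell divides. In cycling cells the genes of this machinery are transcribed mainly in G2 and mitosis. Many of them carry a cell cycle genes homology region (CHR) near the start site, an element bound by the MuvB complexes that also work with B-MYB and FOXM1, and CCAAT boxes bound by NF-Y.

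These elements are shown first as a description of the listed genes, and a link to the dexrazoxane differences was not tested. With dexrazoxane, 28 of the 50 genes were called lower in a paired fit (2.44% of all genes tested), although a fit without the pairing called 0 (0.0% of all genes). Promoter windows of 300 bases, from 250 before to 50 after the start site, came from RefSeq (GRCh38.p14) and were matched for 40 of the 50 members, which gave 45 windows. CENPH, CENPM, KNL1, TTK, BUB3, BIRC5, UBE2C, AURKA, TPX2 and FOXM1 had no entry in the table. The CHR was searched as TTTGAA or TTCGAA and the CCAAT box as CCAAT, both on either strand. TTCGAA reads the same on both strands, and a CCAAT box can share an end base with a CHR. Between 100 bases before and 50 after the start site, 28 of the 45 member windows (62.2%) held a CHR, against 864 of 16981 windows (5.09%) of all genes tested. CCAAT lay somewhere in 35 of the 45 member windows (77.8%), against 34.2% for all genes tested. The windows below are 30 bases around the CHR of the 8 members with the largest mean difference among those that hold one near the start site, a choice made after the promoters had been read. Capitals mark the CHR, also where it was found on the other strand (TTCAAA).
HMMR: gggagaTTTGAATTTGAAaccggtagggag
DLGAP5: cggtgcggcaagTTTGAAtttcgtggaggc
SPC25: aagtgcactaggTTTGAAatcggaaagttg
BUB1B: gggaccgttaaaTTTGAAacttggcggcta
NDC80: ccggcggagaatTTCAAATTCGAAcggctt
NUF2: ggaggcggcaagTTTGAAaagtgatgacgg
NUSAP1: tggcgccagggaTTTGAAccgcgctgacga
SKA3: ccggcgccgagaTTCAAActagtggcggga
On GRCh38.p14 these windows lie at chr5:163460598-163460627 (plus) for HMMR, chr14:55191565-55191594 (minus) for DLGAP5, chr2:168890416-168890445 (minus) for SPC25, chr15:40161034-40161063 (plus) for BUB1B, chr18:2571542-2571571 (plus) for NDC80, chr1:163321958-163321987 (plus) for NUF2, chr15:41332882-41332911 (plus) for NUSAP1 and chr13:21176538-21176567 (minus) for SKA3, with the strand of the gene in brackets. In HMMR the CHR stood as a tandem pair, and in NDC80 both spellings lay side by side.

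Not every member holds the element in its window. The whole windows of CENPE, CENPK and SGO2 are shown because these genes had the largest dexrazoxane difference in the outer kinetochore, inner kinetochore and anaphase groups. Capitals mark CCAAT, or ATTGG where it lies on the other strand.
CENPE: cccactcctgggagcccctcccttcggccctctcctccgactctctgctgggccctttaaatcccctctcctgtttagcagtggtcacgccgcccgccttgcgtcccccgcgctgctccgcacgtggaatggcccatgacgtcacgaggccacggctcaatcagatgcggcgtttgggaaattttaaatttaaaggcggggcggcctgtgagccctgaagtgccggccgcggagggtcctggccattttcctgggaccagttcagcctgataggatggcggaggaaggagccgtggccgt
CENPK: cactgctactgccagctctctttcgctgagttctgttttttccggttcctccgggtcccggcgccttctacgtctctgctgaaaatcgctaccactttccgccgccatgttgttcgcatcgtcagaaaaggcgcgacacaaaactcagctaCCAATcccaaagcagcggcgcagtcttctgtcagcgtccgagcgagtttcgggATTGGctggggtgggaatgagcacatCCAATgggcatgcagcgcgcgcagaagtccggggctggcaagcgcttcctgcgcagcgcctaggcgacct
SGO2: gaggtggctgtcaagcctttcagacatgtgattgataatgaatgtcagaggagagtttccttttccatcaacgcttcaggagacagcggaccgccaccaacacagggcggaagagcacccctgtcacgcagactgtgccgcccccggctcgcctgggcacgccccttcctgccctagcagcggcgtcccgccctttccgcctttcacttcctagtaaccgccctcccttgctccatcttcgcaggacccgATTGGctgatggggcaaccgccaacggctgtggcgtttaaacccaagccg
The CENPE window (chr4:103198294-103198593, minus strand) held neither motif, the CENPK window (chr5:65563119-65563418, minus strand) held 3 CCAAT boxes and no CHR, and the SGO2 window (chr2:200525892-200526191, plus strand) held 1 CCAAT box and no CHR. The 27 members with a CHR near the start site had a median difference of -0.36 on the log2 scale, with 17 called lower in the paired fit described below. The 13 members with a window but no such CHR had a median of -0.41, with 7 called, and the 10 without a window -0.30, with 4 called. Of the 13 members without a CHR near the start site, ASPM and HJURP held one farther upstream, at -113 and -111. A CHR anywhere in the window was found in 77.8% of windows of called members and 55.6% of those not called (12.4% for all genes tested). Near the start site the shares were 66.7% and 55.6%. In the paired fit 2.44% of all genes tested were called lower. A match describes the letters only, and binding was not measured.

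TOP2A RNA served as a check of the doxycycline switch, and its dexrazoxane values are given as a description. It read 6.02 with doxycycline against 11.98 with vehicle (log2 values throughout), and 11.20, 10.92 and 10.52 on dexrazoxane arrays 1 to 3 against 12.41, 12.55 and 12.40 on vehicle arrays 1 to 3. Of 11 mesenchymal markers, COL3A1 was below the filter, and the vehicle means of the other 10 ran from 5.71 for COL1A2 to 13.8 for VIM (vimentin), with 11.99 for FN1 (fibronectin), 11.9 for SPARC, 10.2 for CDH2, and THY1, COL6A2, S100A4, COL6A1 and COL1A1 between 6.08 and 8.05. Of these 10, 0 were called lower and 1 (COL6A2, 0.35) higher with dexrazoxane in the paired fit described below. Of 7 epithelial markers, EPCAM, CDH1, KRT19 and ESRP1 were below the filter. KRT8, a keratin, had 10.44, 10.35 and 9.85 with dexrazoxane against 10.19, 9.60 and 9.32 with vehicle and was called higher (0.51 ± 0.10, limma adjusted p = 0.0334), while KRT18 (0.26) and CLDN4 (0.18) were not called. Of 7 leukocyte and 6 endothelial markers, 3 each passed the filter, 0 were called, and their differences ran from -0.16 for CD3E to 0.099 for CD74. The vehicle means of these leukocyte and endothelial markers ran from 5.41 for VWF to 7.01 for CD3E. COL1A2, THY1 and COL6A2 lay within that range, and the other mesenchymal means lay above it. The part of the marker sets in the results below was not tested.

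With dexrazoxane, every one of the 50 members had a lower mean than with vehicle, against 45.4% of all genes tested. The median of the members was -0.36, from -0.68 for ASPM to -0.051 for ESPL1, while the median of all genes was 0.016. Within the numbered pairs the member medians were -0.36, -0.31 and -0.41, and 42 members were lower in all 3 pairs, against 19.4% of all genes. Differences of this size are modest, since of the members only ASPM, CENPE, TTK and HMMR fell by 1.5-fold or more. In a bulk RNA sample, fewer cells in G2 or mitosis and less of each RNA per cell cannot be told apart.

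The calls depended on the fit. Without a block, limma called 0 members and 0 of all genes (0.0%) at an adjusted p under 0.05, and the lowest adjusted p of a member was 0.830. At an unadjusted p under 0.05 that fit put 13 members lower, against 2.04% of all genes. With the replicate number as a block, limma called 28 of 50 members lower (2.44% of all genes) and 0 higher (2.42% of all genes), at adjusted p-values of 0.0095 to 0.0487. The same shares of all genes stand beside the counts of calls by role group and marker set in this fit. A further 8 members lay between 0.05 and 0.1 in that fit and 14 above. Without pair 1 the paired fit called 5 members lower (CENPE, TTK, HMMR, ASPM and DLGAP5), against 0.38% of all genes. Without pair 2 it called 27 (2.81% of all genes), and without pair 3 it called 13 (1.36% of all genes).

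**Figure D1:**
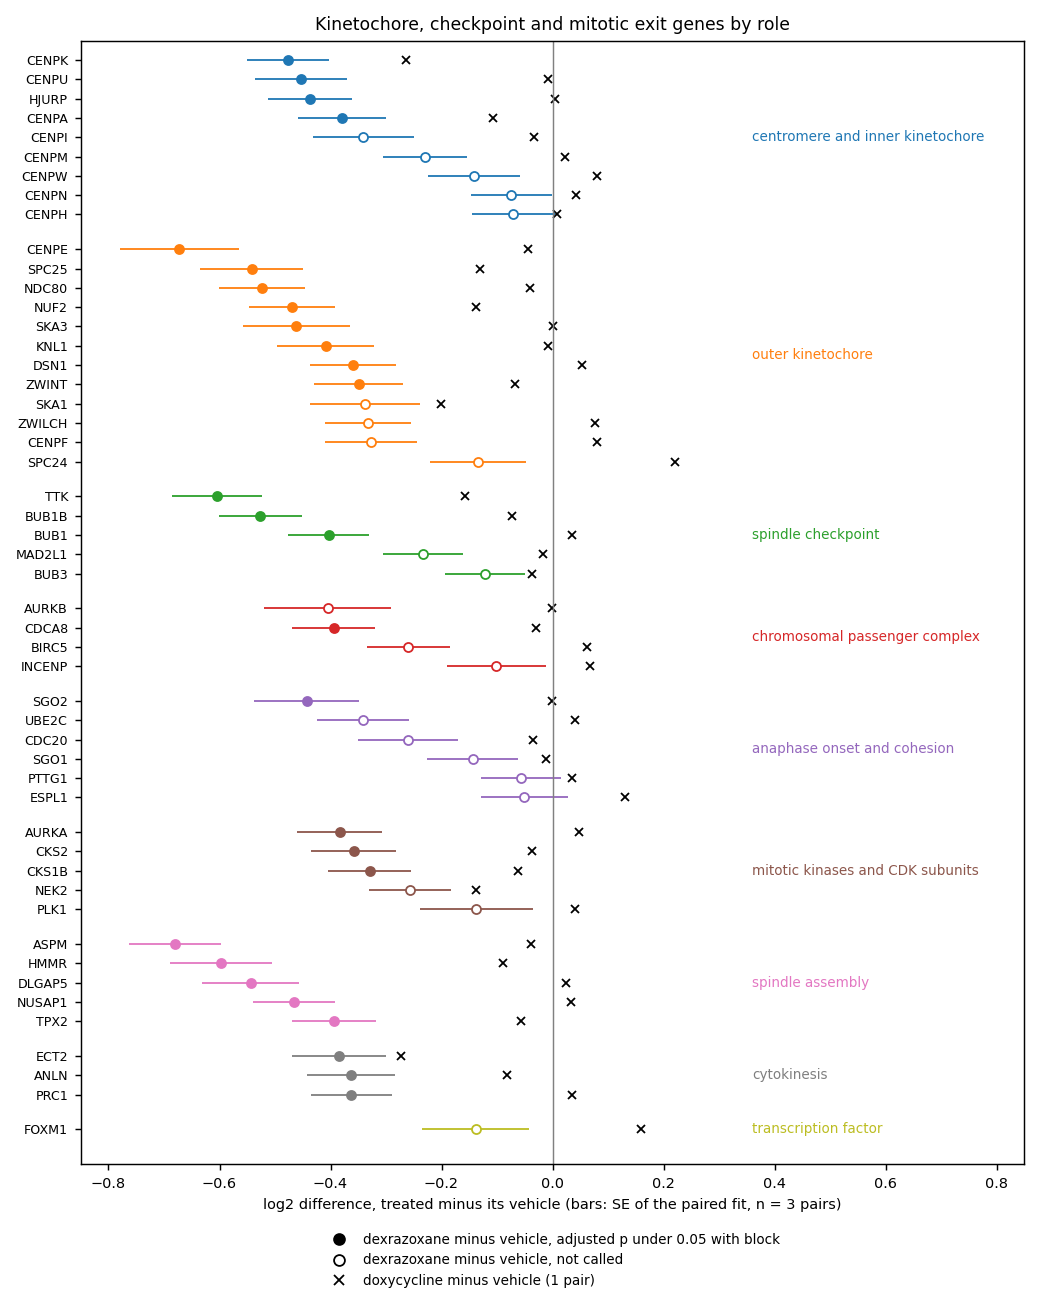
Log2 difference of each of the 50 members, with dexrazoxane minus its vehicle (circles, mean of 3 pairs with the standard error of the paired fit as bars, filled where called) and doxycycline minus its vehicle (crosses, 1 pair of arrays). All 50 circles lie left of 0, and 28 are filled, while 39 of the crosses lie within 0.1 of 0 (8691 of 14731 genes tested).

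Replicate arrays spread widely in these genes. The range over the 3 vehicle arrays had a median of 0.52 over the members and 0.31 over all genes, and it was wider than the dexrazoxane difference in 42 of 50 members. Vehicle array 1 was the highest vehicle array in 45 members, and dexrazoxane array 1 the highest dexrazoxane array in 44. In 30 members dexrazoxane array 1 lay above both vehicle arrays 2 and 3. These counts were made over the members only, so they cannot be called particular to them. Measured from each gene's mean over the 6 arrays, the member medians were 0.18, -0.37 and -0.35 on dexrazoxane arrays 1 to 3, against 0.53, -0.051 and 0.083 on vehicle arrays 1 to 3. The medians of all genes stayed between -0.035 and 0.021. The dexrazoxane arrays lay wholly below the vehicle arrays in 10 members (3.62% of all genes): CENPA, HJURP, CENPK, TTK, BUB3, UBE2C, AURKA, CKS1B, CKS2 and HMMR. Without vehicle array 1 the member median was -0.20, and without dexrazoxane array 1 it was -0.54. The sources used here do not give what the array number stands for.

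**Figure D2:**
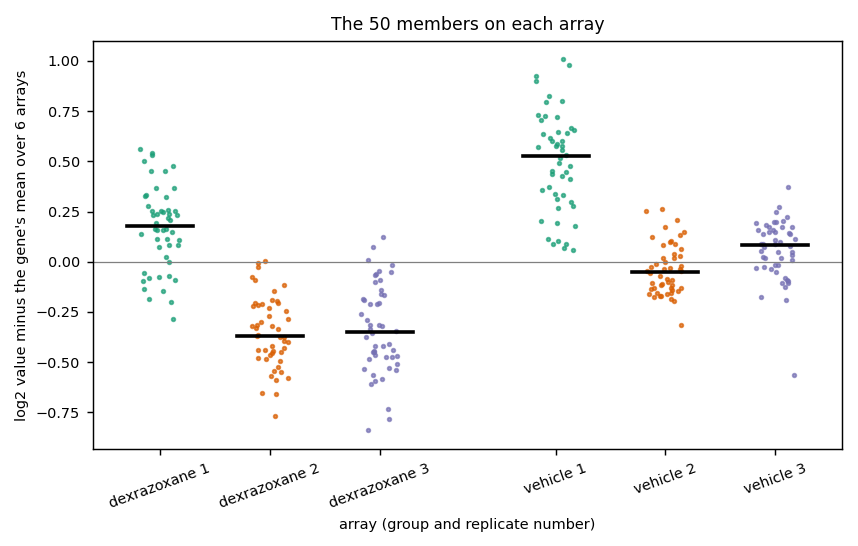
Log2 value of each of the 50 members minus its mean over the 6 arrays (points) and the median over members (bars), for the 3 dexrazoxane and 3 vehicle arrays, coloured by replicate number. Each dexrazoxane median lies below that of the same-numbered vehicle array, and both arrays numbered 1 lie above the others of their group.

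At the centromere and inner kinetochore, 4 of 9 members were called lower with the block (0 without it), and the median difference was -0.34. CENPK belongs to the constitutive centromere-associated network that links CENP-A nucleosomes to the outer layer. It had 8.92, 8.58 and 8.71 on dexrazoxane arrays 1 to 3, against 9.40, 9.11 and 9.13 on vehicle arrays 1 to 3. The groups did not overlap, and CENPK fell by 0.48 ± 0.073 (SE of the paired fit, limma adjusted p = 0.0168). CENPU, a subunit of the same network that docks PLK1, had 9.30, 8.48 and 8.44 with dexrazoxane and 9.67, 8.85 and 9.06 with vehicle, and here the groups overlapped, since dexrazoxane array 1 lay above vehicle arrays 2 and 3 (-0.45 ± 0.083, adjusted p = 0.0263). HJURP, the chaperone that loads CENP-A, was the steadiest of them between arrays. Its values were 10.04, 9.90 and 10.08 with dexrazoxane against 10.51, 10.40 and 10.43 with vehicle, without overlap (-0.44 ± 0.076, adjusted p = 0.0227). CENPA, the histone variant itself, also fell without overlap (-0.38, adjusted p = 0.0378). The other 5 were not called: CENPI at -0.34, CENPM at -0.23, CENPW at -0.14, CENPN at -0.074 and CENPH at -0.071. The CENPN value is that of its brightest probe set. Its other probe sets above the filter were at -0.27 and -0.41, and both were lower in all 3 pairs. CENPH, CENPI, CENPK and CENPM encode subunits of 1 stable subcomplex, and their differences ranged from -0.48 to -0.071.

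The outer kinetochore was the largest group, with 8 of 12 members called lower and a median of -0.38. CENPE, the kinesin that carries chromosomes toward the spindle equator (chr4:103105811-103198343), had 9.10, 7.79 and 7.78 with dexrazoxane against 9.54, 8.39 and 8.76 with vehicle, or 8.22 ± 0.76 with dexrazoxane and 8.90 ± 0.59 with vehicle (SD, n = 3 each). Array 1 of each group stood well above the others, and each pair differed in the same direction (-0.44, -0.60 and -0.98 in pairs 1 to 3). The paired fit gave -0.67 ± 0.11 (adjusted p = 0.0182), a 1.59-fold fall. SPC25 and NDC80 encode subunits at opposite ends of the complex that holds the microtubule. SPC25 read 8.24, 7.80 and 7.63 with dexrazoxane and 8.88, 8.11 and 8.31 with vehicle (-0.54 ± 0.092, adjusted p = 0.0214). NDC80 read 8.22, 7.57 and 7.61 with dexrazoxane and 8.70, 8.03 and 8.25 with vehicle (-0.52 ± 0.077, adjusted p = 0.0149). In both genes dexrazoxane array 1 lay above vehicle array 2 only. NUF2, the partner of NDC80, fell similarly (-0.47, adjusted p = 0.0191), whereas SPC24, the partner of SPC25, was at -0.13 and was not called (adjusted p = 0.408). SPC24 had 8.08, 7.75 and 7.95 with dexrazoxane against 8.05, 7.86 and 8.27 with vehicle, and pair 1 went slightly the other way. The 2 SKA members, of a complex that tracks microtubule ends, were SKA3 at -0.46 (adjusted p = 0.0379) and SKA1 at -0.34 (adjusted p = 0.0935). SKA1 had 7.73, 6.91 and 6.70 with dexrazoxane against 8.21, 6.97 and 7.18 with vehicle, a wide spread in which array 1 of each group was highest, and without vehicle array 1 its difference was 0.040. The scaffold KNL1 (-0.41), the MIS12 complex subunit DSN1 (-0.36) and the KNL1 partner ZWINT (-0.35) were called, and ZWINT was the called member nearest the bound (adjusted p = 0.0487). Just outside it lay ZWILCH, of the complex that recruits dynein to kinetochores (-0.33, adjusted p = 0.0508), and CENPF (-0.33, adjusted p = 0.0641).

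Among the 5 spindle checkpoint members, the kinase genes TTK and BUB1 and the kinase-related BUB1B fell in the paired fit. MAD2L1 and BUB3 were not called on their brightest probe sets. TTK, the kinase that starts checkpoint signalling at the kinetochore (chr6:80004649-80042527), had 9.19, 8.50 and 8.64 with dexrazoxane against 9.64, 9.20 and 9.30 with vehicle. All 3 dexrazoxane arrays lay below all 3 vehicle arrays. The difference was -0.60 ± 0.081 (adjusted p = 0.0121), 1.52-fold, and TTK was the only member called in the paired fit under each of the 11 alternatives run with it. TTK has 1 probe set, so the alternatives that change the choice of probe set could not alter its values. BUB1B encodes BUBR1, a part of the complex that inhibits the APC/C. It read 9.68, 8.90 and 8.97 with dexrazoxane and 10.25, 9.33 and 9.55 with vehicle, overlapping through the arrays numbered 1 (-0.53 ± 0.075, adjusted p = 0.0144). BUB1, which marks centromeric chromatin for shugoshin and recruits other checkpoint proteins, read 9.001, 8.30 and 8.34 with dexrazoxane and 9.35, 8.75 and 8.76 with vehicle (-0.40 ± 0.073, adjusted p = 0.0258). With the mean of its probe sets BUB1 was at -0.24 and was not called (adjusted p = 0.0826). MAD2L1, the CDC20-binding checkpoint protein, was at -0.23 (adjusted p = 0.106). Its other probe sets, both above the filter, were at -0.38 and -0.42 and were lower in all 3 pairs. MAD2L1 was called with the mean of its probe sets, where BUB1 was not. It was also called with specific probe sets, which have no x_at, s_at or a_at names, and with a trended robust variance. BUB3, which brings BUB1 and BUBR1 to KNL1, was at -0.12 (adjusted p = 0.366). BUB3 was lower on every dexrazoxane array than on any vehicle array all the same, with 11.77, 11.78 and 11.84 with dexrazoxane against 11.93, 11.87 and 11.95 with vehicle.

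The chromosomal passenger complex corrects wrong attachments through the kinase AURKB. Of its 4 genes, 1 was called. CDCA8 (borealin) had 9.23, 8.54 and 8.55 with dexrazoxane against 9.61, 8.87 and 9.02 with vehicle (-0.39 ± 0.074, adjusted p = 0.029). AURKB had the larger mean difference, but its pairs disagreed in size. Its values were 8.76, 8.61 and 8.52 with dexrazoxane and 9.45, 8.68 and 8.97 with vehicle, so that pairs 1 to 3 differed by -0.69, -0.074 and -0.45 (-0.41 ± 0.11, adjusted p = 0.0851). BIRC5 (survivin) had 10.27, 9.91 and 9.81 with dexrazoxane and 10.47, 10.14 and 10.16 with vehicle (-0.26 ± 0.075, adjusted p = 0.0896). INCENP, the scaffold, was at -0.10.

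The genes of anaphase onset and cohesion had 1 call among 6 and a median of -0.20, the nearest to 0 of the role groups with more than 1 member. SGO2, a shugoshin that shields centromeric cohesin, was the called one. It had 9.79, 8.81 and 8.74 with dexrazoxane against 9.99, 9.43 and 9.24 with vehicle, with dexrazoxane array 1 above vehicle arrays 2 and 3 (-0.44 ± 0.094, adjusted p = 0.0398). UBE2C, the ubiquitin-conjugating enzyme of the APC/C, did not overlap between groups but was not called. Its values were 10.86, 10.78 and 10.83 with dexrazoxane and 11.35, 10.97 and 11.16 with vehicle (-0.34 ± 0.084, adjusted p = 0.0593). CDC20, the APC/C activator that the checkpoint holds back, had 10.87, 10.50 and 10.35 with dexrazoxane and 11.28, 10.55 and 10.68 with vehicle. Pair 2 barely differed, and CDC20 was not called (-0.26 ± 0.090, adjusted p = 0.136). SGO1, the shugoshin of mitotic centromeres, was at -0.14. The smallest mean differences of all members were those of securin (PTTG1, -0.057) and of separase, the protease it restrains (ESPL1, -0.051).

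Mitotic kinases and the small CDK-binding CKS proteins gave 3 calls among 5 members. AURKA, the kinase of centrosomes and spindle poles, had 10.32, 10.07 and 10.21 with dexrazoxane against 10.77, 10.35 and 10.64 with vehicle (-0.38 ± 0.077, adjusted p = 0.0339). The AURKA call was lost with the mean of its probe sets (adjusted p = 0.0801) and with the probe set whose name marks no shared sequence (adjusted p = 0.558), which differed by -0.21, -1.53 and 0.61 in pairs 1 to 3. CKS2 had 11.37, 11.47 and 11.60 with dexrazoxane and 11.76, 11.72 and 12.03 with vehicle (-0.36 ± 0.076, adjusted p = 0.0398). CKS1B had 11.44, 11.20 and 11.43 with dexrazoxane and 11.85, 11.49 and 11.72 with vehicle (-0.33 ± 0.075, adjusted p = 0.0468). In none of these 3 did the groups overlap. NEK2, a kinase that separates centrosomes, was at -0.26 (adjusted p = 0.087). PLK1, which acts from mitotic entry to cytokinesis, was at -0.14 (adjusted p = 0.470) and was higher on dexrazoxane array 2 than on vehicle array 2.

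All 5 spindle assembly genes were called, and their median of -0.54 was the lowest of the role groups. ASPM, a spindle pole protein (chr1:197084127-197146669), had 10.32, 9.19 and 9.01 with dexrazoxane against 10.85, 9.88 and 9.82 with vehicle, or 9.51 ± 0.71 with dexrazoxane and 10.19 ± 0.58 with vehicle (SD, n = 3 each). Dexrazoxane array 1 lay above vehicle arrays 2 and 3, so the groups overlapped, but each pair differed by 0.53 or more (-0.53, -0.69 and -0.81). The difference of -0.68 ± 0.082 had the lowest adjusted p of any member (0.00949). The brightest ASPM probe set whose name marks no shared sequence gave -0.36 and was not called (adjusted p = 0.0555). HMMR, a spindle-associated protein (chr5:163460632-163491941), had 10.69, 10.13 and 10.01 with dexrazoxane and 11.05, 10.84 and 10.73 with vehicle, without overlap (-0.60 ± 0.092, adjusted p = 0.017). DLGAP5, which stabilises kinetochore fibres, had 9.73, 8.90 and 9.02 with dexrazoxane and 10.08, 9.58 and 9.63 with vehicle (-0.54 ± 0.087, adjusted p = 0.0185). NUSAP1, a microtubule bundler, was at -0.47 (adjusted p = 0.0182), and TPX2, the activator of AURKA, at -0.39 (adjusted p = 0.0308). HMMR, DLGAP5 and NUSAP1 are among the genes whose CHR is printed above.

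All 3 cytokinesis genes were called, with nearly equal differences. ECT2, the exchange factor that activates RhoA at the division plane, had 10.21, 9.50 and 9.58 with dexrazoxane against 10.53, 10.06 and 9.85 with vehicle (-0.38 ± 0.084, adjusted p = 0.0425). ANLN (anillin), which links the contractile ring to the membrane, had 10.97, 10.14 and 10.16 with dexrazoxane and 11.20, 10.53 and 10.62 with vehicle (-0.36 ± 0.080, adjusted p = 0.0426). PRC1, the bundler of the central spindle, had 11.23, 10.29 and 10.12 with dexrazoxane and 11.55, 10.64 and 10.54 with vehicle (-0.36 ± 0.073, adjusted p = 0.0346). In each of these genes dexrazoxane array 1 lay above vehicle array 2, and the groups overlapped.

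FOXM1, the transcription factor that drives many G2 and mitotic genes, had a smaller mean difference than the median member. It had 9.27, 8.81 and 8.42 with dexrazoxane and 9.42, 8.72 and 8.78 with vehicle. Pair 2 was slightly higher with dexrazoxane, and the difference of -0.14 ± 0.096 was not called (adjusted p = 0.441). Its sign was positive without dexrazoxane array 3 (0.068) and without vehicle array 1 (0.086).

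**Figure D3:**
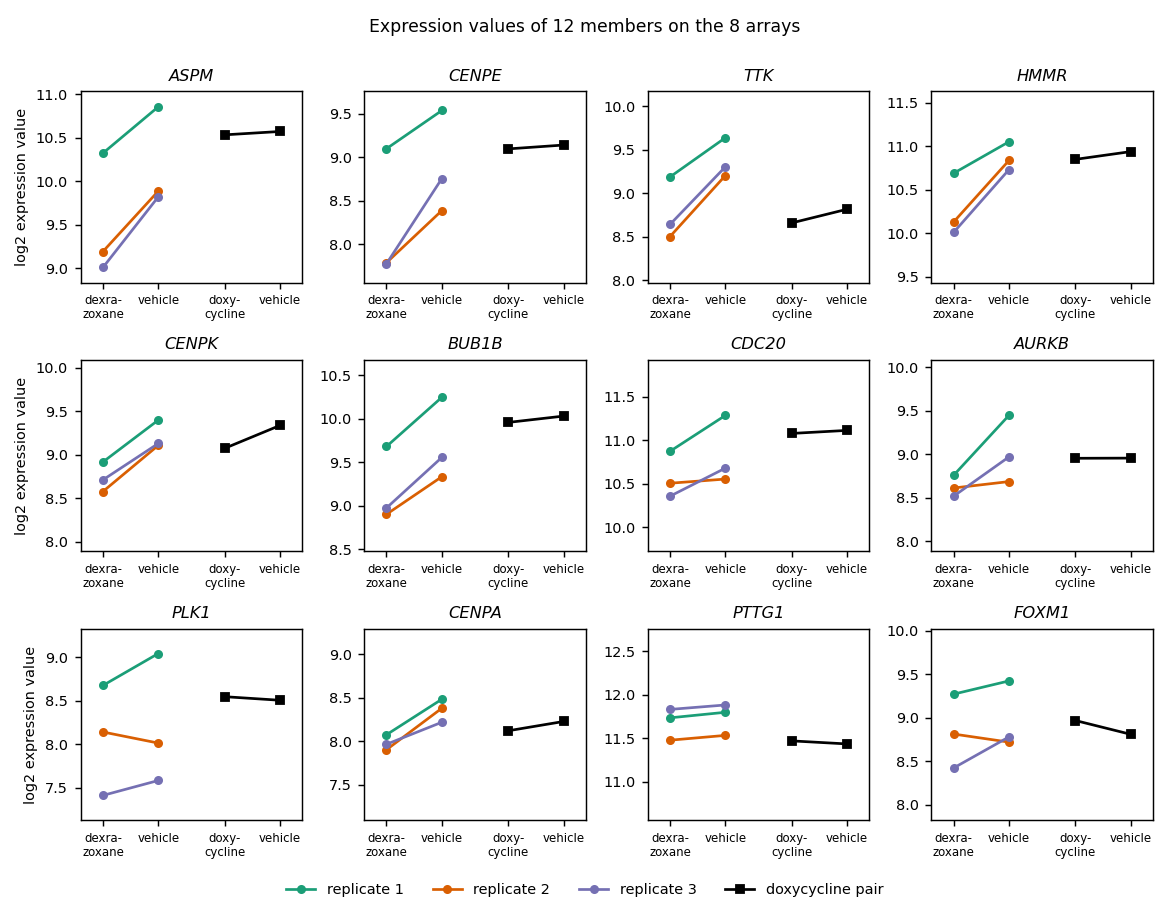
Log2 expression values of 12 members on all 8 arrays, with dexrazoxane or doxycycline left of its vehicle and lines joining arrays of the same number, each panel spanning the same height. Lines slope up to vehicle in every pair for ASPM, CENPE, TTK, HMMR, CENPK and BUB1B, and in 2 of 3 pairs for PLK1 and FOXM1, while the doxycycline differences of these 12 lie between -0.26 (CENPK) and 0.16 (FOXM1).

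Doxycycline, which lowered TOP2A by 5.96 on the log2 scale, left these genes close to their vehicle. There was 1 array in each group, so the differences have no replicate check and no p-value. The median over the members was -0.0081 and that of all genes 0.018, and 28 members were below 0 (40.7% of all genes), 21 above and 1 at 0. A difference of 1.5-fold or more was seen in 0 members lower (0.102% of all genes) and 0 higher (0.0272% of all genes). The SD was 0.094 over the members and 0.15 over all genes tested, with TOP2A among the latter and signal level not matched. Within 0.1 of 0 lay 39 of 50 members, against 8691 of 14731 genes tested. ECT2 had the largest difference, 9.92 with doxycycline against 10.20 with vehicle (-0.27). CENPK had 9.07 with doxycycline and 9.34 with vehicle (-0.26). SKA1 had 7.25 with doxycycline and 7.45 with vehicle (-0.20). These genes were lower with dexrazoxane as well, though SKA1 was not called there. SPC24 went the other way, with 7.90 with doxycycline and 7.68 with vehicle (0.22), and FOXM1 likewise, at 8.97 with doxycycline and 8.81 with vehicle (0.16). The genes with the largest dexrazoxane differences were nearer to 0. ASPM read 10.53 with doxycycline against 10.57 with vehicle. CENPE read 9.10 with doxycycline against 9.14 with vehicle. HMMR read 10.85 with doxycycline against 10.94 with vehicle. TTK was the farthest of these from its vehicle, at 8.66 with doxycycline against 8.81 with vehicle (-0.16).

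The order of the members was partly shared between the treatments, which have separate vehicles. Across the 50 members the dexrazoxane and doxycycline differences correlated at a Pearson r of 0.48 and a Spearman rho of 0.51. Across all genes tested, with TOP2A among them, the Pearson r was 0.23. Genes on the same arrays are not independent replicates, so this is a description. Of the 28 members called with dexrazoxane, 20 were below 0 with doxycycline, and of the 22 not called, 8 were.

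**Figure D4:**
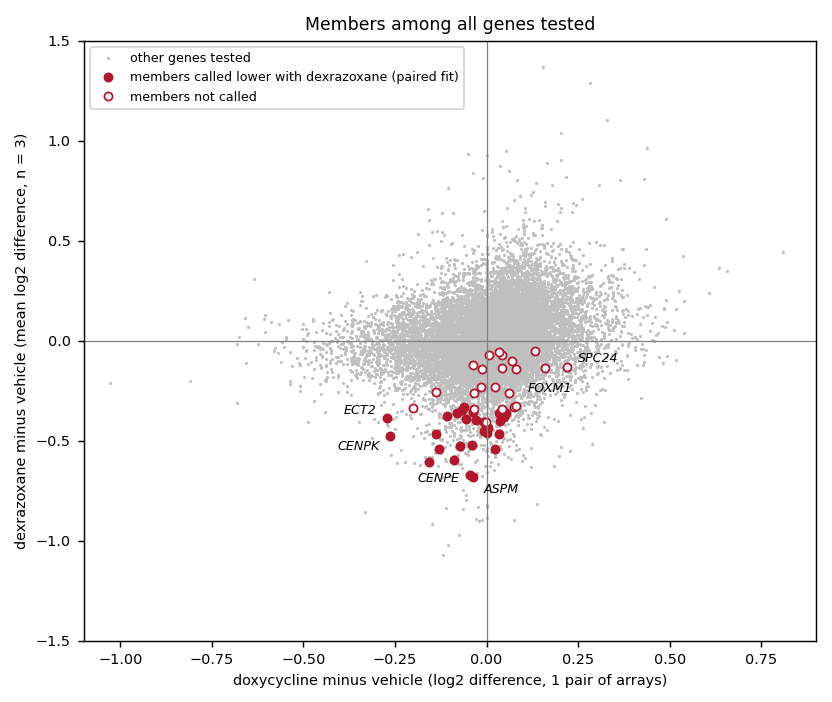
Mean log2 difference with dexrazoxane (vertical) against the log2 difference with doxycycline (horizontal), each over its own vehicle, for 50 members (red, filled where called in the paired fit) and the other genes tested (grey), with TOP2A left out of the plot. The members lie below 0 on the vertical axis and between -0.27 and 0.22 on the horizontal one.

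In related genes outside the list the medians lay nearer to 0. Of 16 tested further kinetochore subunits, 4 were called lower in the paired fit (2.44% of all genes) and 0 higher (2.42% of all genes), with a median of -0.21. CENPQ, a partner of CENPU, had 6.30, 5.86 and 5.55 with dexrazoxane against 6.77, 6.44 and 6.23 with vehicle (-0.58 ± 0.077, adjusted p = 0.0115). The other 3 were SPDL1, an adaptor for dynein at kinetochores (-0.52), CENPL (-0.42) and KNTC1, the partner of ZWILCH (-0.40). MIS18A, which licenses CENP-A loading, was at -0.39 (adjusted p = 0.0533). The APC/C list had a median of 0.02, and of its 16 tested genes 1 was called lower (2.44% of all genes). That gene was not a subunit but FBXO5 (EMI1), an inhibitor of the APC/C, with 9.30, 8.74 and 8.88 on dexrazoxane and 9.84, 9.56 and 9.60 on vehicle arrays (-0.69 ± 0.082, adjusted p = 0.00911). UBE2S, the chain-elongating enzyme of the APC/C, was at -0.16 (adjusted p = 0.307). Among 13 other checkpoint and mitotic exit genes, 2 were called lower (2.44% of all genes), and the median was -0.11. The 2 called were BORA, a cofactor of PLK1 activation (-0.40, adjusted p = 0.0401), and MASTL, the Greatwall kinase (-0.37, adjusted p = 0.0466).

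Of 13 tested genes of the transcription complexes that act on CHR and CCAAT elements, 10 were not called in the paired fit, 2 were called lower (2.44% of all genes) and 1 higher (2.42% of all genes), with a median of -0.14. LIN37, a MuvB subunit, had 7.49, 7.78 and 7.77 with dexrazoxane against 6.99, 7.21 and 7.31 with vehicle, without overlap (0.51 ± 0.073, adjusted p = 0.0144). LIN9, another MuvB subunit, had 6.98, 6.14 and 6.28 with dexrazoxane and 7.57, 6.73 and 6.65 with vehicle (-0.51 ± 0.081, adjusted p = 0.018). RBL1 (p107), a pocket protein of the DREAM complex, was at -0.61 (adjusted p = 0.0187). MYBL2, which encodes B-MYB, was at -0.12 and was not called. None of the calls in these lists was made without the block.

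Other probe sets of the members mostly gave the same direction with dexrazoxane. Among 22 members with more than 1 probe set there were 43 others, 32 of them above the filter, and all 32 were below 0, with a median of -0.38, as were 9 of the 11 below the filter. The doxycycline differences were less steady, since 5 other probe sets differed in sign from their gene's by 0.2 or more. They were 229827_at of BUB3 (0.25), 229304_s_at of CENPU (0.23) and, below the filter, 1555046_at of CENPI (0.25), 231938_at of SGO1 (0.27) and 237241_at of ECT2 (0.29). The chosen probe set was of a kind that can bind related transcripts in 22 members, 6 with names ending in x_at and 16 in s_at, and those of PTTG1, AURKA and CKS1B, which have close copies in the genome, are the least certain.

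The count of calls depended on the processing. The paired fit called 28 members as reported and between 2 and 38 under the alternatives, and the share of all genes moved with it. The most came with a trended robust variance, where 5.78% of all genes were called lower. The fewest came when every probe set was tested on its own, where TTK and ASPM were called, along with 0.204% of all probe sets.

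**Figure D5:**
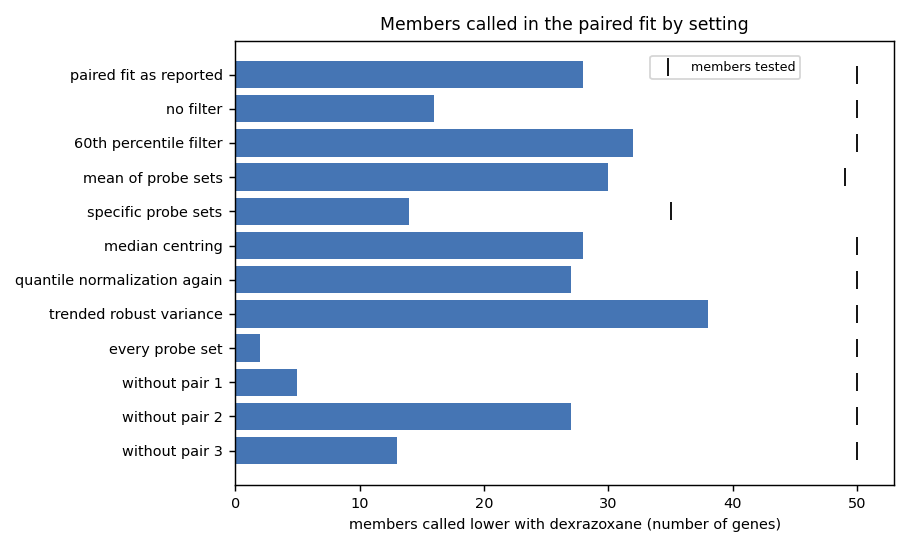
Number of members called lower with dexrazoxane in the paired limma fit under each processing setting (bars) and number of members tested (ticks). The count is 28 as reported, 5 without pair 1, 13 without pair 3 and 2 with every probe set tested on its own.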

How the data were processed

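The authors deposited 1 log2 value per probe set and array, normalized with RMA according to the submitters' processing notes; the sources used here do not say whether all arrays went through it together. The doxycycline pair had array medians of 4.81 and 4.82 and the other arrays 5.49 to 5.57, and the doxycycline array and its vehicle were identical in 9.62% of probe sets, so levels were not compared across them. Precision is limited by the number of arrays. Probe sets with 1 gene symbol (41097 of 54675) were used. Symbols were updated through Entrez identifiers to RefSeq (GRCh38.p14), the brightest probe set over the 8 arrays stood for its gene, and genes under the 40th percentile of probe sets (4.83) were left out.

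The dexrazoxane comparison used limma 3.58.1 (R 4.3.3; two-sided moderated test from lmFit and eBayes, p-values adjusted by Benjamini-Hochberg over 14731 genes, bound 0.05), once without a block and once with the replicate number, which the labels share between the groups, as a block. Over all genes tested, same-numbered arrays deviated together from their group means (Pearson r of 0.823, 0.574 and 0.716, against -0.629 to 0.181 between other arrays). Same-numbered arrays were therefore taken as pairs, on a check made in the data it is used on. Deviations from a mean of 3 arrays sum to 0, so higher values for same-numbered arrays push those of other arrays down. Mean differences are the same in both fits, and standard errors printed are those of the paired fit. Both fits were also run on simulated arrays. There same-numbered arrays were pairs by construction, so the simulation could not test the pairing. Changes of 0.5 on the log2 scale were recovered in 30.75% of changed genes with the block and 0.25% without it. The mean number of false calls was 2.4 with the block and 0.2 without it. The members and the gene lists were chosen with earlier results of these data known. Named in full were up to 3 members of each role group by size of the dexrazoxane difference, the 4 largest doxycycline differences, FOXM1, TOP2A, and up to 2 genes of each further list by p without the block; further called genes were named after their values were seen. The alternatives for probe sets were no filter, the 60th percentile, the mean of probe sets, every probe set and specific probe sets. Specific ones have no x_at, s_at or a_at names. Further alternatives were median centring, quantile normalization, a trended robust variance, and leaving out arrays or pairs.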

Additional observations from a re-analysis of the deposited data

How the results depend on the processing

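Without a replicate block 0 members were called under every alternative run. With the block the count called lower, with the share of all genes in brackets, was 28 as reported (2.44%), 16 with no filter (1.16%), 32 with a 60th percentile filter (4.61%), 30 of 49 tested with the mean of probe sets (2.54%), 14 of 35 tested with specific probe sets (1.95%), 28 with median centring (2.52%), 27 with quantile normalization again (2.48%), 38 with a trended robust variance (5.78%) and 2 with every probe set on its own (0.204%). Without 1 pair it was 5 (0.38%), 27 (2.81%) and 13 (1.36%) for pairs 1 to 3. With specific probe sets 19 of the 28 were tested and 6 of those lost their call (CENPU, KNL1, DSN1, SGO2, AURKA and ASPM). More features were adjusted over with no filter and with every probe set, and the cause of these changes was not tested.

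The median dexrazoxane difference of the members was -0.54 to -0.20 without 1 array, with values of -0.27, -0.27, -0.47 and -0.44 between those ends, -0.37 to -0.34 without 1 pair and -0.40 to -0.36 under the other settings. The doxycycline median was -0.0009 with the mean of probe sets, 0 with specific probe sets, 0.0032 with median centring and -0.030 with quantile normalization. Over 28 named genes, 3 of 710 recomputed values changed sign, SKA1 without vehicle array 1 (0.040) and FOXM1 without dexrazoxane array 3 (0.068) and without vehicle array 1 (0.086), none of them called. Settings that change only the fit or the filter keep the mean difference, so their values among the 710 could not change sign. Without 1 array the SKA1 difference ran from -0.65 to 0.040 and that of FOXM1 from -0.36 to 0.086.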

Other observations

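Members with longer genes had the lower median differences with dexrazoxane. Gene spans in the RefSeq table ran from 4.05 to 143.21 kb, with a median of 26.1 kb. Across the 50 members, span and difference had a Spearman rho of -0.45, against -0.17 across 14712 genes tested that have a span. The points share arrays, and the values are a description. In the paired fit 2.44% of all genes tested were called lower, and the share among genes of like span was not computed. The 18 members of 40 kb or more, among them CENPE, ASPM and BUB1B, had a median of -0.43 with 14 called in the paired fit. The 13 members of 20 to 40 kb had a median of -0.36 with 8 called, and the 19 shorter ones, among them PTTG1, CDC20 and BIRC5, had a median of -0.26 with 6 called.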
